A study of Mus musculus with 14 samples.

Results

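MHC class I antigen presentation was followed in epidermal stem cells (EpdSCs) through 9 genes, taken by symbol from the 54332 genes of a TPM table: the heavy chains *H2-K1* and *H2-D1*, the light chain *B2m*, the peptide transporter subunits *Tap1* and *Tap2*, the loading chaperone *Tapbp*, the immunoproteasome subunits *Psmb8* and *Psmb9*, and the transcriptional regulator *Nlrc5*. All 9 genes were found, and all 9 passed the filter on low levels, a mean over the libraries of 1 TPM or more. RNA-seq was available for 10 libraries of EpdSCs purified by FACS from back skin of CD1 mice, an outbred stock, with 2 libraries that the labels call biological replicates at each of 5 timepoints. Every group, D0 included, carried K14rtTA and TRE-myc-Sox9, so that a MYC-tagged *Sox9* is switched on by doxycycline (DOX) in cells in which the *Krt14* promoter drives rtTA. D0 mice were P21 and had not received DOX. W1, W2 and W6 mice had received it from P21 and were P28, P35 and P63. The W12 cells came from newborn skin that had been grafted onto immunocompromised female Nude hosts before DOX, so grafting and 12 weeks of SOX9 cannot be told apart, and neither can age and time on DOX from D0 to W6. No RNA of age-matched mice without DOX was analysed here. The sort kept cells that were CD49f-high and Ly6A-high and removed those with CD31, CD45, CD117, CD140a or CD34.

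MHC class I molecules display peptides from inside the cell to CD8 T cells. Proteasomes cut the peptides, the TAP1 and TAP2 heterodimer carries them into the endoplasmic reticulum, tapasin (encoded by *Tapbp*) holds empty class I molecules at the transporter, and a loaded heavy chain reaches the surface with β2-microglobulin. Interferons raise the genes of this pathway and exchange proteasome subunits for immunoproteasome ones. NLRC5 acts at class I promoters together with RFX factors, with CREB/ATF factors at the X2 box and with NF-Y factors at the Y box. Keratinocytes express class I constitutively, and many tumours lower it.

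The upstream sequences are shown first for context, and their part in the changes below was not tested. On GRCm38, 7 of the 9 genes lie in the MHC on chromosome 17: *H2-K1* (chr17:33996017-34000347, minus strand), *Tapbp* (chr17:33915899-33929292, plus), *Psmb9* (chr17:34181987-34187764, minus), *Tap1* (chr17:34187553-34197225, plus), *Psmb8* (chr17:34197721-34201454, plus), *Tap2* (chr17:34203527-34216321, plus) and *H2-D1* (chr17:35262730-35267499, plus). *B2m* lies on chr2:122147686-122153083 (plus) and *Nlrc5* on chr8:94434356-94527272 (plus). RefSeq promoter windows of GRCm38.p6 matched 7 of the 9 genes, in 8 windows of 250 bases before a transcription start, with none for *Tap2* and *Nlrc5*. In *H2-K1*, *H2-D1* and *B2m* the letters TGACG, the core of a CREB/ATF site, were followed after exactly 20 bases by ATTGG, an inverted CCAAT box. This spacing was chosen after it was seen in these 3 genes. Searched on both strands, the combination was present in 0.0913% of 32851 windows, which belonged to 26 genes. The 30-base stretches are printed 5′ to 3′ on the strand of the gene with both boxes in capitals.
*H2-K1* (chr17:34000359-34000388): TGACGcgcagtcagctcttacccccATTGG
*H2-D1* (chr17:35262993-35263022): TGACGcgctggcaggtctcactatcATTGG
*B2m* (chr2:122147609-122147638): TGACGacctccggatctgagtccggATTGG

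The non-classical heavy chain gene *H2-M3* was another of the 26. The boxes taken singly were common: TGACG was present in 17.8% and CCAAT in 33.8% of all windows, on either strand. *Tap1* and *Psmb9* are transcribed away from each other, and 1 TGACG (chr17:34187470-34187474) and 1 CCAAT (chr17:34187334-34187338) lay in the windows of both, without the 20-base spacing. The heavy chains also held a kappa-B motif (GGG and TTCCC with 2 bases between, 1.53% of all windows on either strand), and *B2m* held an interferon-stimulated response element (GAAA, 2 bases, GAAA, 2.98%). They are shown in capitals within 30 bases because NF-kappa-B and interferon regulatory factors bind such letters, and neither overlapped another motif searched.
*H2-K1* kappa-B (chr17:34000439-34000468): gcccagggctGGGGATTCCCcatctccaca
*H2-D1* kappa-B (chr17:35262913-35262942): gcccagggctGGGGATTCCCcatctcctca
*B2m* response element (chr2:122147538-122147567): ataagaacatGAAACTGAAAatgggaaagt

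The SOX core ACAATG was in none of the 8 windows (10.7% of all). A match describes these letters only and no binding was measured here. The whole *B2m* window, the gene without sequence shared with another gene (below), is printed for context, with the response element and TGACG in capitals.
*B2m* (chr2:122147437-122147686): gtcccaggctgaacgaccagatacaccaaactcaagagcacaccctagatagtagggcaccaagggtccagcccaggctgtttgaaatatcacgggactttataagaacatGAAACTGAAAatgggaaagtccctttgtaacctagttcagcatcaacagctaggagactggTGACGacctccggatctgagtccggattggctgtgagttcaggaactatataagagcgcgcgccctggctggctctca

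The libraries were checked before the comparisons. TPM is a level per transcript length on a fixed total per library, so levels of different genes can be compared but the depth behind them is unknown. The transgene entry MYC-SOX9 rose from 89.6 and 45.6 TPM at D0 to between 606 and 3414 TPM in the 8 libraries with DOX, and replicates of 1 timepoint correlated across genes at 0.958 to 0.988 on the log2 scale. All samples were labelled male. Against this label, *Xist* stood at 4.61 TPM in D0 replicate 2, which had 0.0278 TPM of *Ddx3y*, a gene of the Y chromosome. At W12, *Xist* stood at 5.51 and 3.50 TPM beside *Ddx3y* levels of 10.97 and 12.9 TPM, while the 7 other libraries had *Ddx3y* at 21.9 to 32.7 TPM. Calls that rest on D0 are therefore given with and without D0 replicate 2. The 7 markers of basal keratinocytes (*Krt5*, *Krt14*, *Krt15*, *Itga6*, *Itgb4*, *Trp63*, *Ly6a*) all reached 1 TPM at every timepoint, with a summed level of 35192 to 59374 TPM. *Ptprc*, which encodes CD45, was at 0.327 TPM or less in every library.

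The heavy chains were among the most abundant transcripts of these cells. *H2-K1* had 3283 and 4106 TPM at D0, 3081 and 2534 at W1, 3514 and 2422 at W2, 862 and 1014 at W6, and 2096 and 2346 at W12. *H2-D1* had 2824 and 5374 TPM at D0, 3773 and 2138 at W1, 5295 and 2954 at W2, 1203 and 1187 at W6, and 1775 and 2040 at W12. For both, the W6 libraries lay below all 8 others, and the W12 libraries lay between W6 and the 6 libraries of D0, W1 and W2. The ranges of D0, W1 and W2 overlapped for *H2-D1*, whereas for *H2-K1* both D0 libraries were above both W1 libraries. By mean level *H2-D1* was 24th of all genes at D0 and 122nd at W6.

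*B2m*, the light chain that every class I heavy chain needs, took another course. It had 3362 and 4113 TPM at D0, 2769 and 2262 at W1, 3178 and 2344 at W2, 1247 and 1645 at W6, and 4623 and 3899 at W12. The W6 libraries were again lowest, but at W12 one library of *B2m* lay within the range of D0 and the other above it. It was the most abundant of the 9 genes at W6 and W12, where its range did not meet that of the heavy chains, whereas at D0 the ranges of *H2-D1*, *B2m* and *H2-K1* overlapped.

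The peptide transporter and its chaperone stayed low at W12. *Tap1* had 100 and 174 TPM at D0, 132 and 108 at W1, 181 and 132 at W2, 48.5 and 44.5 at W6, and 53.3 and 62.96 at W12. *Tap2* had 73.5 and 116 TPM at D0, 114 and 92.9 at W1, 112 and 88.1 at W2, 26.9 and 32.3 at W6, and 37.3 and 48.8 at W12. *Tapbp* had 221 and 255 TPM at D0, 310 and 261 at W1, 325 and 274 at W2, 126 and 110 at W6, and 91.9 and 145 at W12. In all 3 genes the 4 libraries of W6 and W12 lay below the 6 of D0, W1 and W2, and for *Tapbp* the W6 and W12 ranges overlapped.

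The immunoproteasome subunits, which replace constitutive catalytic subunits and favour peptides that fit class I, followed *B2m*. *Psmb8* had 285 and 332 TPM at D0, 276 and 179 at W1, 319 and 197 at W2, 64.6 and 98.3 at W6, and 273 and 302 at W12. *Psmb9* had 153 and 212 TPM at D0, 121 and 85.8 at W1, 152 and 113 at W2, 32.4 and 54.0 at W6, and 178 and 180 at W12. The W6 libraries were lowest in both genes, and the W12 libraries lay within or next to the range of D0. *Nlrc5*, the regulator, was the least abundant of the 9 genes at every timepoint, with 14.2 and 24.6 TPM at D0, 17.3 and 17.2 at W1, 16.0 and 11.7 at W2, 5.02 and 8.47 at W6, and 8.73 and 9.99 at W12.

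**Figure D1:**
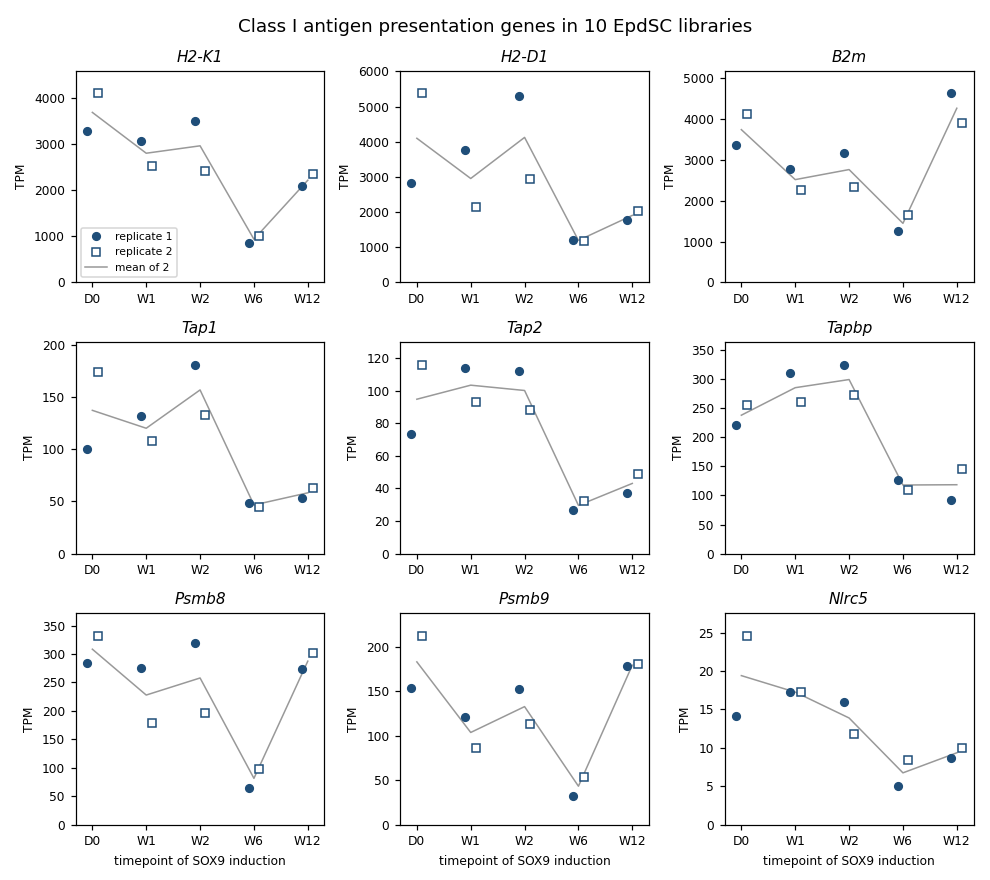
TPM (y axis, linear from 0) of the 9 genes in each of the 10 libraries by timepoint (x axis); filled circles are replicate 1, open squares replicate 2 and the line joins the means of 2. In every panel the W6 libraries lie below the 6 libraries of D0, W1 and W2, and at W12 *B2m*, *Psmb8* and *Psmb9* are back near D0 while *Tap1*, *Tap2* and *Tapbp* stay near W6.

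The first question was whether class I presentation differed early in SOX9 induction. At W1 against D0 none of the 9 genes passed the test (limma on log2(TPM + 1), adjusted p under 0.05 over 13110 genes), where 9.89% of all genes did. The changes ran from −0.82 for *Psmb9* to 0.26 for *Tapbp* with a median of −0.39 on the log2 scale, which was 0.00840 without D0 replicate 2 and −0.11 without W1 replicate 2. With all libraries 2 genes had an unadjusted p under 0.05, *Psmb9* (log2 change −0.82 ± 0.28 SE, adjusted p = 0.111 by limma) and *B2m* (−0.57 ± 0.23 SE, adjusted p = 0.155). At W2 against D0 again none passed by limma, where 15.7% of all genes did, none had an unadjusted p under 0.05, and the changes ran from −0.46 to 0.33. Between W1 and W2 none passed and none had an unadjusted p under 0.05, with 0.114% of all genes called. None of the alternatives below called a gene in these 3 comparisons. Of the 9 genes, *H2-D1* had the largest ratio between replicates at D0, W1 and W2 (below).

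At W6 all 9 genes fell against D0. Of all genes tested, 14.1% fell in this comparison, and the median change of the 9 was −1.62 beside 0.08 for all genes. *Psmb9*, *H2-K1* and *Psmb8* changed most. *Psmb9* fell by 2.08 on the log2 scale (SE 0.28, adjusted p = 0.00120 by limma), a level of 0.236 times that of D0. *H2-K1* fell by 1.97 (SE 0.22, adjusted p = 0.000511 by limma) and *Psmb8* by 1.93 (SE 0.29, adjusted p = 0.00203). *H2-D1* fell by 1.70 (SE 0.39, adjusted p = 0.0115), *Tap2* by 1.62 (SE 0.25, adjusted p = 0.00209), *Tap1* by 1.49 (SE 0.26, adjusted p = 0.00394), *Nlrc5* by 1.39 (SE 0.30, adjusted p = 0.00951) and *B2m* by 1.38 (SE 0.23, adjusted p = 0.00291). *Tapbp* fell least, by 1.01 (SE 0.22, adjusted p = 0.0100, a level of 0.498 times D0).

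Without D0 replicate 2, 6 of the 9 remained called lower at W6, where the share of all genes called lower was 7.96%. The calls of *H2-D1*, *Tapbp* and *Nlrc5* ended, with log2 changes of −1.24, −0.90 and −1.01 (adjusted p = 0.0701, 0.0566 and 0.0592 by limma). With all libraries but no filter on low values the call of *H2-D1* ended (adjusted p = 0.0592 by limma), and with only the 4 libraries compared those of *H2-D1* and *Nlrc5* did (0.0513 and 0.0918). With D0 replicate 2 and both W12 libraries out of the fit, 7 were called, and with only the W12 libraries out, 9. Beside the class I genes, 6 of the 7 basal keratinocyte markers also fell at W6 against D0 (median −1.07), and 5 without D0 replicate 2 (median −0.77). Among them was *Ly6a*, which fell by 0.94 on the log2 scale, although Ly6A was used for the sort. Fewer cells of a type and less RNA per cell cannot be told apart in these bulk libraries.

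The step fell between W2 and W6. Against W2, 8 of the 9 genes fell, where 8.31% of all genes fell, and *Nlrc5* did not pass (log2 change −0.96 ± 0.30 SE, adjusted p = 0.0600 by limma). *H2-D1* fell by 1.73, *Tap2* by 1.72, *Tap1* by 1.71, *H2-K1* and *Psmb8* by 1.64, *Psmb9* by 1.62, *Tapbp* by 1.33 and *B2m* by 0.93 on the log2 scale. In every one of the 9 genes both W6 libraries were below all 6 libraries of D0, W1 and W2, a pattern that 15.4% of all genes tested showed. The count rests on W2 replicate 1, the higher W2 library in all 9 genes: without it only *H2-K1* was called, at log2 changes of −0.71 to −1.55 for the 9 genes, and the share of all genes called lower went from 8.31% to 0.786%. The call of *H2-D1* also ended without either W6 library (adjusted p = 0.0529 and 0.0824 by limma) and without a filter on low values (0.0953), and that of *Psmb8* without a filter (0.0548) and with only the 4 libraries compared (0.0516). The call of *B2m* ended under the replicate block (adjusted p = 0.0506 by limma), without a filter (0.101), with only the 4 libraries compared (0.0724), and whenever W6 replicate 1 or any single library of W1, W2 or W12 was left out (0.0504 to 0.201). The fibroblast marker *Dcn* was at 1.46 TPM in W6 replicate 1 and 51.2 TPM in W6 replicate 2, with the 5 other fibroblast markers at 0.550 TPM or less, and its part in the W6 levels was not tested.

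At W12 the 9 genes no longer stood alike. Against D0, 5 fell, where 25.1% of all genes fell: *Tap1* by 1.18 (SE 0.26, adjusted p = 0.00761 by limma), *Tap2* by 1.10 (SE 0.25, adjusted p = 0.00807), *Tapbp* by 1.03 (SE 0.22, adjusted p = 0.00620), *Nlrc5* by 0.93 (SE 0.30, adjusted p = 0.0340) and *H2-K1* by 0.73 (SE 0.22, adjusted p = 0.0273). *H2-D1* did not pass, with a log2 change of −1.03 ± 0.39 SE (adjusted p = 0.0581). *B2m*, *Psmb8* and *Psmb9* had log2 changes of 0.19 ± 0.23, −0.10 ± 0.29 and −0.01 ± 0.28 (SE), which is less than their standard errors. Both W12 libraries were below all 6 libraries of D0, W1 and W2 in 6 of the 9 genes, the 5 called and *H2-D1*, against 31.4% of all genes. Beside them, 4 of the 7 basal keratinocyte markers fell at W12 against D0, with and without D0 replicate 2, led by *Krt15*, *Trp63* and *Itgb4* (log2 changes of −5.37, −1.83 and −1.73). *Ly6a* rose by 0.80, and was not called without D0 replicate 2 or either W12 library, and the part of these marker changes in the class I levels was not tested.

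These W12 calls depended on single libraries. Without W12 replicate 1 only *Tapbp* was called lower, where the share of all genes was 14.4%, and *Tap1*, *Tap2*, *Nlrc5* and *H2-K1* had log2 changes of −1.06, −0.91, −0.84 and −0.65. Without W12 replicate 2 *Tap1*, *Tap2* and *Tapbp* were called lower (18.0% of all genes), with *Nlrc5* at −1.02 and *H2-K1* at −0.81. The same 3 genes were called without D0 replicate 2 (16.9% of all genes), where *Nlrc5* had −0.56, *H2-K1* −0.57 and *Psmb9* 0.22 in place of −0.01, and after quantile normalization or without a filter, where *H2-K1* and *Nlrc5* did not pass. The comparisons of W1, W2, W6 and W12 with D0 share the D0 libraries.

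**Figure D2:**
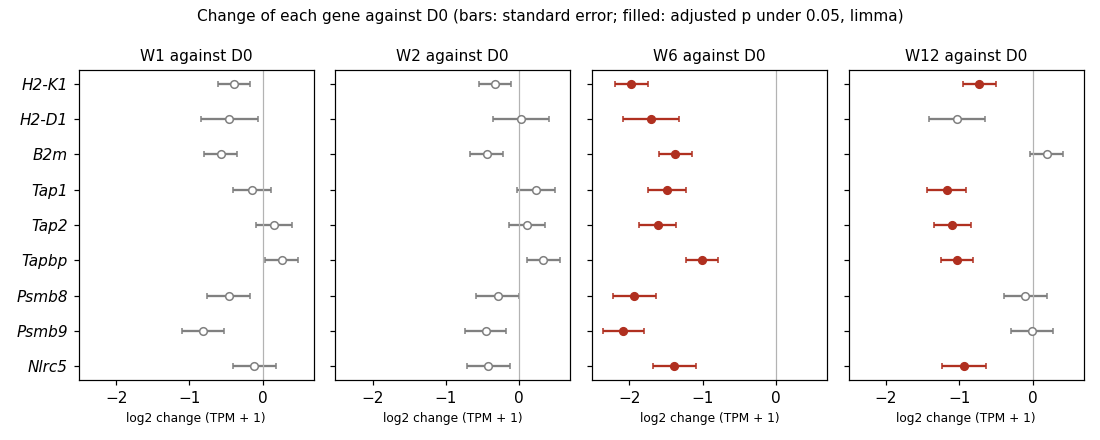
Log2 change of each gene (x axis, on log2(TPM + 1)) at W1, W2, W6 and W12 against D0, with bars for the standard error from limma; filled points passed the adjusted threshold. No gene is filled at W1 or W2, all 9 are filled below 0 at W6, and at W12 the 5 filled genes are *H2-K1*, *Tap1*, *Tap2*, *Tapbp* and *Nlrc5*.

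Set directly against W6, 4 genes were higher at W12, where 6.66% of all genes were. *Psmb9* rose by 2.07 on the log2 scale (SE 0.28, adjusted p = 0.00225 by limma, a level of 4.202 times W6), *Psmb8* by 1.84 (SE 0.29, adjusted p = 0.00470), *B2m* by 1.57 (SE 0.23, adjusted p = 0.00299) and *H2-K1* by 1.24 (SE 0.22, adjusted p = 0.00718). *H2-D1* had 0.67 ± 0.39, *Tap2* 0.52 ± 0.25, *Nlrc5* 0.45 ± 0.30, *Tap1* 0.31 ± 0.26 and *Tapbp* −0.03 ± 0.22 (log2 change ± SE), none of which passed. In 8 of the 9 genes, all but *Tapbp*, both W12 libraries were above both W6 libraries, against 19.4% of all genes tested. Without W12 replicate 2 the call of *H2-K1* ended (adjusted p = 0.0504). The F test over the 4 contrasts with D0 called 9 of 9, also without D0 replicate 2, where it called 57.5% of all genes with all 10 libraries.

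Ratios within a library, which no scaling of the library alters, show how the 9 genes moved apart. The sum of *H2-K1* and *H2-D1* was 1.82 and 2.30 times *B2m* at D0, 2.48 and 2.07 at W1, and 2.77 and 2.29 at W2. It was 1.66 and 1.34 at W6, and 0.837 and 1.12 at W12. The W6 and W12 ratios thus lay below those of all 6 earlier libraries, so that heavy chain RNA stood lower against light chain RNA. *Tap1* and *Psmb9*, the neighbours transcribed in opposite directions, had a ratio of 0.654 to 1.497 in the 8 libraries up to W6 and of 0.299 and 0.349 at W12. Their annotated transcripts overlap by 212 bases on opposite strands, and whether the library kit kept the strand is not given in the sources used here, so reads from those bases could not be assigned with certainty.

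Immunoproteasome subunits were also set against the constitutive subunits they replace, *Psmb8* against *Psmb5*, *Psmb9* against *Psmb6* and *Psmb10* against *Psmb7*. *Psmb8* over *Psmb5* was 1.27 and 2.21 at D0, 1.10 and 0.674 at W1, 1.29 and 0.765 at W2, 0.207 and 0.289 at W6, and 0.751 and 0.748 at W12. *Psmb9* over *Psmb6* was 0.319 and 0.613 at D0, 0.260 and 0.179 at W1, 0.285 and 0.214 at W2, 0.0507 and 0.0863 at W6, and 0.269 and 0.235 at W12. The W6 ratios were the lowest in both pairs, and the W12 ratios lay below D0 and within the range of W1 and W2. Of 4 listed constitutive proteasome genes, 3 rose at W6 and at W12 against D0, *Psmb5* (0.82 and 1.06), *Psmb6* (0.63 and 0.80) and *Psmb7* (0.59 and 0.64 on the log2 scale), beside 18.3% and 17.9% of all genes. Without D0 replicate 2, *Psmb5* alone passed at W6 (0.54), with 0.39 for *Psmb6* and 0.37 for *Psmb7*, and all 3 passed at W12 (0.77, 0.57 and 0.42). *Psmb5* was also the only one called at W6 without either W6 library, with 0.62 and 0.64 for *Psmb6* and 0.55 and 0.63 for *Psmb7*. The denominators of these ratios thus differed between timepoints as well.

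The third immunoproteasome subunit took another course at W6. *Psmb10* had 59.9 and 38.2 TPM at D0, 50.1 and 60.7 at W6, and 89.6 and 97.2 at W12. Its W6 range overlapped that of D0, and at W12 it rose by 0.95 on the log2 scale against D0 (SE 0.24, adjusted p = 0.0128 by limma), a call that ended without D0 replicate 2 (0.63, adjusted p = 0.0743) and without either W12 library (1.01 and 0.89, adjusted p = 0.0546 and 0.0732). *Psmb10* over *Psmb7* was 0.259 and 0.332 at W6, beside 0.267 to 0.411 in the 6 earlier libraries, and 0.446 and 0.510 at W12. *Psmb10* lies outside the MHC, unlike *Psmb8* and *Psmb9*. Of the 3 other listed genes of the immunoproteasome and its activator, only the assembly factor *Pomp* passed with all libraries. It rose by 0.75 at W6 and 0.96 at W12 against D0, where 18.3% and 17.9% of all genes rose. Without D0 replicate 2 its changes were 0.34 and 0.55, and the W6 call ended. That call also ended without either W6 library, and the W12 call of *Pomp* ended without W12 replicate 1. The activator subunits *Psme1* and *Psme2* had 123 and 176 TPM and 253 and 334 TPM at W6, beside 217 and 184 TPM and 476 and 295 TPM at D0. Among *Psmb10* and these 3 genes, a call of lower at W6 against D0 appeared when D0 replicate 2 or W6 replicate 2 was left out.

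**Figure D3:**
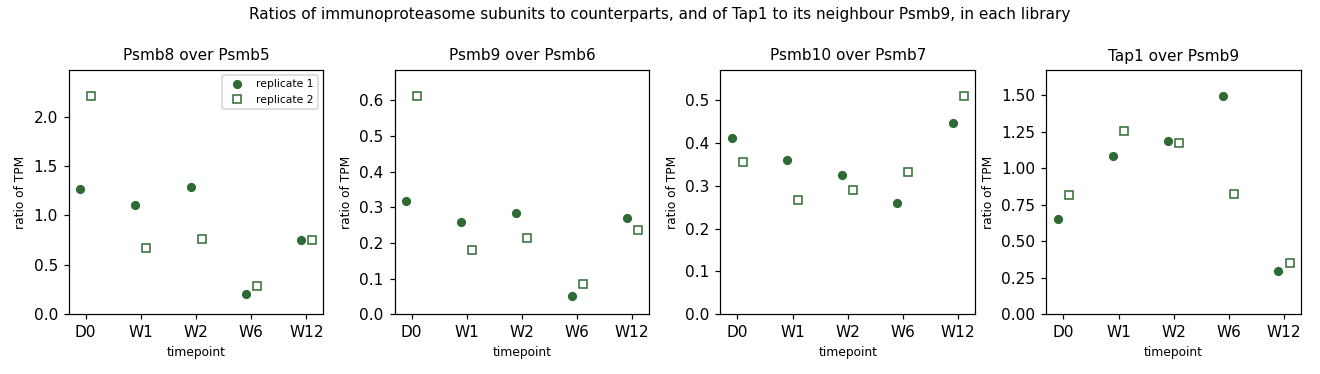
Ratio of TPM (y axis, linear from 0) in each library by timepoint for 3 pairs of immunoproteasome and constitutive subunits and for *Tap1* over *Psmb9*; filled circles are replicate 1 and open squares replicate 2. *Psmb8* over *Psmb5* is lowest at W6 (0.207 and 0.289), *Psmb10* over *Psmb7* is highest at W12 (0.446 and 0.510), and *Tap1* over *Psmb9* is lowest at W12 (0.299 and 0.349).

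The split of reads between the heavy chains was examined because they are alike and vary between strains. Of the distinct 31-base words in the annotated *H2-K1* transcripts, 22.8% also occurred in transcripts of other genes and 11.1% in *H2-D1*. The share was 26.9% for *H2-D1*, 26.9% for *Tapbp* (22.1% with the gene model *Gm19412*), 14.3% for *Tap2*, 13.7% for *Psmb8*, 4.79% for *Psmb9*, 4.09% for *Tap1*, 0.579% for *Nlrc5* and none for *B2m*. *H2-K1* over *H2-D1* was 1.162 and 0.764 at D0, 0.816 and 1.19 at W1, 0.664 and 0.820 at W2, 0.717 and 0.855 at W6, and 1.18 and 1.15 at W12. The W12 ratios lay within the range of the other libraries. *B2m*, which shares no such word, also had its lowest 2 libraries at W6.

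Replicates of D0, W1 and W2 differed more in *H2-D1* than in the 8 other genes. The *H2-D1* level was 1.90 times as high in D0 replicate 2 as in D0 replicate 1, 1.76 times as high in W1 replicate 1 as in replicate 2, and 1.79 times as high in W2 replicate 1 as in replicate 2. Replicate 2 was the higher in all 9 class I genes at D0, and replicate 1 in all 9 at W1 and W2. The 15 non-classical class I genes tested were divided, with replicate 2 higher in 10 at D0 and replicate 1 higher in 7 at W1 and 8 at W2. *H2-Q7* and *H2-Bl*, chosen after their values were seen, are 2 of those in which the difference was wide. *H2-Q7* had 106 and 235 TPM at D0, 81.6 and 11.6 at W1, 210 and 75.3 at W2, 46.6 and 32.0 at W6, and 148 and 118 at W12, and *H2-Bl* had 38.9 and 2.00 TPM at W1. The mice were outbred and the transcripts of the index are those of the reference strain. The part of allele differences in this spread, and that of host cells at W12, was not tested.

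**Figure D4:**
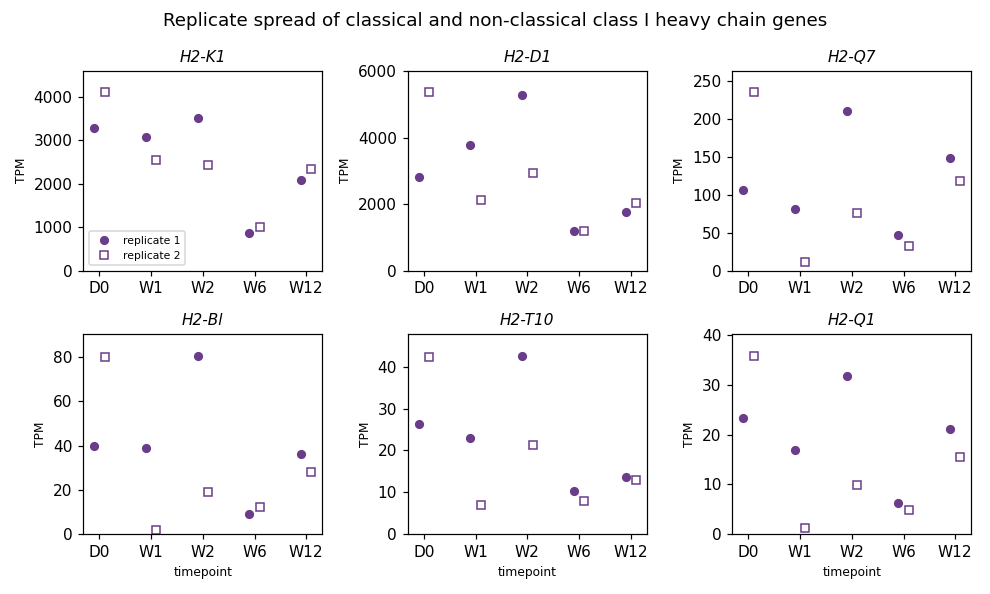
TPM (y axis, linear from 0) of *H2-K1*, *H2-D1* and 4 non-classical class I genes, chosen after their values were seen, in each library by timepoint; filled circles are replicate 1 and open squares replicate 2. D0 replicate 2 is above D0 replicate 1 in all 6 panels, and W1 and W2 replicate 1 are above their replicate 2 in all 6.

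Some of the other class I heavy chain genes were lower at W6 as well. Of 15 non-classical genes tested, 6 fell, none rose and 9 did not pass at W6 against D0 (median −1.76), where 14.1% of all genes fell, and 5 fell without D0 replicate 2 (7.96% of all genes). The called changes were led by *H2-M2* (fell by 3.04), *H2-M3* (by 2.42) and *H2-Q10* (by 1.96 on the log2 scale). At W12 against W6, 5 of the 15 rose and none fell (median 1.52), where 6.66% of all genes rose, led by *H2-T22* (2.99), *H2-T23* (2.04) and *H2-Q10* (1.69). These values lean on W6 replicate 1. *H2-T22* had 4.01 and 21.9 TPM at W6, beside 36.7 and 19.8 at D0, and *H2-T23* had 20.6 and 110 TPM at W6, beside 115 and 86.3 at D0, so that in both genes W6 replicate 2 lay within the range of D0. Without W6 replicate 1, 3 of the 15 were called higher at W12, and the log2 changes were 1.89 for *H2-T22* and 0.86 for *H2-T23*, which did not pass (adjusted p = 0.0985 by limma). Of the 5 calls, 1 remained without W12 replicate 1, and all ended without W12 replicate 2 at a median log2 change of 1.40 over the 15 genes, 5 of which had an unadjusted p under 0.05 by limma. *H2-T23* encodes Qa-1, which presents leader peptides of other class I molecules to NKG2A on natural killer cells. These genes share sequence with the classical heavy chains, so the counts of calls are not independent of theirs.

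No general chaperone of the endoplasmic reticulum passed the test at W6. Of 7 further peptide loading genes, among them those for calreticulin, calnexin and ERp57, none fell or rose at W6 against D0 by limma (1 had an unadjusted p under 0.05), where 14.1% of all genes fell and 18.3% rose, and the median change was 0.01 beside −1.62 for the 9 genes. At W12 against D0, 2 of the 7 fell, *Ganab* (by 0.73) and *Uggt1* (by 0.54 on the log2 scale), which act in glycoprotein folding, a share near the 25.1% of all genes. Both were called without D0 replicate 2, and *Ganab* alone without D0 replicate 1 or either W12 library. *Tapbpl*, encoding the peptide editor TAPBPR, had 24.8 and 26.6 TPM at D0, 77.8 and 83.8 at W1, 52.7 and 47.9 at W2, 33.6 and 25.9 at W6, and 20.3 and 24.3 at W12. It was the 1 gene of the list that rose at W1 and W2 against D0, by 1.62 and 0.94 (1.67 and 0.99 without D0 replicate 2), where 5.79% and 9.06% of all genes rose. The W2 call ended without W2 replicate 1 (0.87, adjusted p = 0.0696 by limma). It fell by 0.75 from W2 to W6, a call that ended without either W2 library or W6 replicate 2 (adjusted p = 0.164, 0.105 and 0.0819 by limma).

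A few of the factors that act on class I promoters were lower at W6. Of 11 listed regulators of class I genes, 4 fell, none rose and 7 did not pass at W6 against D0, where 14.1% of all genes fell: *Nfya* by 1.05, *Rela* by 0.84, *Rfx5* by 0.82 and *Irf2* by 0.81 on the log2 scale. Without D0 replicate 2 none of the 11 passed and 2 had an unadjusted p under 0.05 (log2 changes of −0.80, −0.54, −0.60 and −0.56 for these 4, adjusted p = 0.112 to 0.168 by limma), and without W6 replicate 2 the count was 2. *Rfx5*, a subunit of the RFX complex that binds class I promoters, had 10.6 and 14.7 TPM at D0, 7.03 and 6.32 at W6, and 4.39 and 4.45 at W12, where it was 1.32 lower than at D0 (adjusted p = 0.00165), and 1.10 lower without D0 replicate 2 (adjusted p = 0.0114). *Irf1*, an interferon-induced activator of class I genes, had 121 and 74.5 TPM at D0, 70.8 and 19.8 at W1, 132 and 69.2 at W2, 50.4 and 36.1 at W6, and 121 and 185 at W12. Its replicates spread widely, with W1 replicate 2 below both W6 libraries, and at W12 against W6 it did not pass (log2 change 1.79 ± 0.55 SE, adjusted p = 0.0524).

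Interferon-stimulated genes were lower at W6 than at D0, and some were already lower at W1 and W2. Of 8 interferon-stimulated genes tested, 7 fell at W6 against D0 (median −1.52), where 14.1% of all genes fell, and 4 without D0 replicate 2 (7.96% of all genes). The changes were led by *Usp18* (by 4.05), *Irf7* (by 2.01) and *Bst2* (by 1.93). Against D0, 2 of the 8 fell at W1 (*Usp18* and *Irf7*) and 3 at W2 (with *Isg15*), where 4.10% and 6.64% of all genes fell, and without D0 replicate 2 it was *Usp18* alone at each. The W2 count was also 1 without W2 replicate 2, and without W1 replicate 2 no call remained at W1 (2 had an unadjusted p under 0.05), where *Usp18* had a log2 change of −1.71 (adjusted p = 0.0599 by limma). *Usp18*, which restrains signalling at the type I interferon receptor, had 25.1 and 33.0 TPM at D0, 8.10 and 7.63 at W1, 1.85 and 1.68 at W2, 0.393 and 1.31 at W6, and 5.56 and 3.78 at W12. Against W2, 3 of the 8 fell at W6, where 8.31% of all genes fell, and the count was 0 without W2 replicate 1 by limma (0.786% of all genes, median log2 change −0.58, 3 with an unadjusted p under 0.05) and 1 without W2 replicate 2 or W6 replicate 1. From W6 to W12, 6 of the 8 rose, where 6.66% of all genes rose, and 4 and 5 without W12 replicate 1 and 2. At W12 against D0, 2 of the 8 were higher (*Oas1a* by 1.52 and *Isg15* by 0.87), *Usp18* was lower (by 2.41) and the median was −0.01. In that comparison 17.9% of all genes rose and 25.1% fell. The calls of higher did not both hold when either D0 library or W12 replicate 2 was left out. Neither of them held without W12 replicate 1.

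Of 12 listed GTPases and chemokines induced by interferon gamma, 10 passed the filter, *Gbp3* and *Gbp4* only through their W12 levels, and the counts here cover the 8 others. At W6 against D0, 6 of the 8 fell, where 14.1% of all genes fell, 6 also without D0 replicate 2 (7.96% of all genes), and 4 without D0 replicate 1 or without W6 replicate 1. The largest called change was that of the chemokine gene *Cxcl10* (by 2.82), whose D0 libraries had 42.2 and 5.30 TPM, so that without D0 replicate 1 its log2 change was −1.43 and did not pass (adjusted p = 0.0644 by limma). *Igtp* fell by 2.46 and *Gbp2* by 2.09. At W12 against D0, 7 of the 8 rose, also without D0 replicate 2, where 17.9% of all genes rose with all libraries, and 6 and 5 rose without W12 replicate 1 and 2. *Iigp1* rose by 3.84 and *Gbp2* by 2.02 on the log2 scale. *Cxcl9* rose by 2.90, and by 1.68 without D0 replicate 2, with 8.79 and 0.799 TPM at D0 and 26.3 and 34.9 at W12. *Igtp* had 6.73 and 9.96 TPM at D0, 0.636 and 0.714 at W6, and 23.1 and 28.2 at W12.

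The receptor side of interferon signalling was lower in part, with *Ifngr1* lower than at D0 at every later timepoint by mean level and *Ifngr2* higher at W1. Of 9 listed genes for interferon receptors, their kinases and feedback inhibitors, 3 fell at W6 and 5 at W12 against D0, where 14.1% and 25.1% of all genes fell, and none rose. The counts were 1 and 2 without D0 replicate 2 (7.96% and 16.9% of all genes), and without W6 replicate 2 and W12 replicate 1 they were 1 each. At W1 against D0, 1 of the 9 rose and 2 fell, where 5.79% and 4.10% of all genes did. These W1 counts changed when single libraries were left out. *Ifngr2*, a chain of the interferon gamma receptor, had 46.3 and 38.6 TPM at D0 and 65.1 and 62.9 at W1. Its levels were 38.9 and 40.5 TPM at W6 and 41.0 and 45.1 at W12, within the range of D0. *Ifngr1*, the other chain, had 216 and 335 TPM at D0, 131 and 99.3 at W1, 128 and 147 at W2, 31.1 and 46.2 at W6, and 69.5 and 66.1 at W12. Against D0 it fell by 1.23 and 0.97 at W1 and W2, and by 2.79 and 1.97 at W6 and W12. Without D0 replicate 2 the last 2 calls held (by 2.48 and 1.66), and the W1 and W2 changes of −0.91 and −0.65 did not pass (adjusted p = 0.0771 and 0.148 by limma), nor did the first without W1 replicate 2 or the second without either W2 library. At W6 the feedback inhibitor *Socs3* fell by 1.82 and the kinase *Jak1* by 0.58, and neither passed without D0 replicate 2 or without W6 replicate 2. At W12 the kinase *Tyk2* fell by 0.97 and *Socs3* by 1.65, and of these *Tyk2* passed without D0 replicate 2 and neither without W12 replicate 1.

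Class I-like molecules outside the MHC and ligands of lymphocyte receptors did not all move one way. Against D0, 6.64% of all genes fell at W2, 14.1% at W6 and 25.1% at W12, while 18.3% rose at W6 and 17.9% at W12. Of 5 class I-like genes tested, *Fcgrt*, the neonatal Fc receptor, fell at W6 against D0 (by 1.68, with no call at −1.12 without D0 replicate 2 and at −1.34 without W6 replicate 1), and *Procr*, the endothelial protein C receptor, rose at W6 (2.37) and W12 (5.49). *Procr* had 0.293 to 1.06 TPM in the 6 libraries of D0, W1 and W2, 5.87 and 11.7 at W6, and 65.5 and 98.8 at W12. Its mean reached the filter of 1 TPM only through W6 and W12, where it was high. *Cd1d1*, which presents lipids, rose at W12 (1.53), but it passed the filter only through W12. Of 4 stress and checkpoint ligands tested, *H60c*, a ligand of NKG2D, had 93.8 and 63.6 TPM at D0, 34.5 and 44.2 at W1, 18.4 and 24.5 at W2, 8.53 and 16.0 at W6, and 33.2 and 19.99 at W12, and fell by 1.82 at W2, 2.62 at W6 and 1.54 at W12 against D0. The W2 call ended without W2 replicate 1 and the W12 call without W12 replicate 2 (adjusted p = 0.0752 and 0.0629 by limma). *Raet1e*, another NKG2D ligand, and *Cd274*, encoding PD-L1, passed the filter only through W12. *Raet1e* had 0.213 TPM or less up to W2, 3.48 and 3.65 at W6, and 3.66 and 6.56 at W12. *Cd274* had 1.33 and 1.91 TPM at D0, 0.0824 and 0.289 at W6, and 2.18 and 2.93 at W12. *Ulbp1* rose by 0.79 at W12, and was not called without D0 replicate 2 or either W12 library.

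Endothelial markers and class II genes were highest at W12. Of 5 endothelial markers, all 5 reached 1 TPM at W12, with a summed level of 55.4 and 121 TPM, beside 0.0598 to 1.49 TPM in the 8 other libraries, where *Cdh5* was listed at 0 at D0, W1 and W2. *Pecam1*, which encodes the CD31 that the sort removed, had 26.1 and 59.8 TPM at W12. The 5 class II genes summed to 277 and 292 TPM at W12 and to 10.5 to 51.3 TPM before, with *Cd74* at 102 and 124 TPM and their activator *Ciita* at 0.417 and 0.561 TPM. The 10 haematopoietic markers summed to 5.65 and 6.65 TPM at W12, inside the 3.56 to 9.09 TPM of the other libraries. The 6 fibroblast markers summed to 13.7 and 28.1 TPM at W12, of which *Dcn* made up 13.2 and 27.2 TPM, and to 0.544 to 52.2 TPM in the other libraries. The 5 melanocyte markers summed to 12.5 and 10.9 TPM at W12 and to 1.22 to 11.7 TPM in the others. The part of endothelial, class II-bearing or host cells in the W12 levels of *B2m*, *Psmb8*, *Psmb9* and *H2-K1* was not tested.

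**Figure D5:**
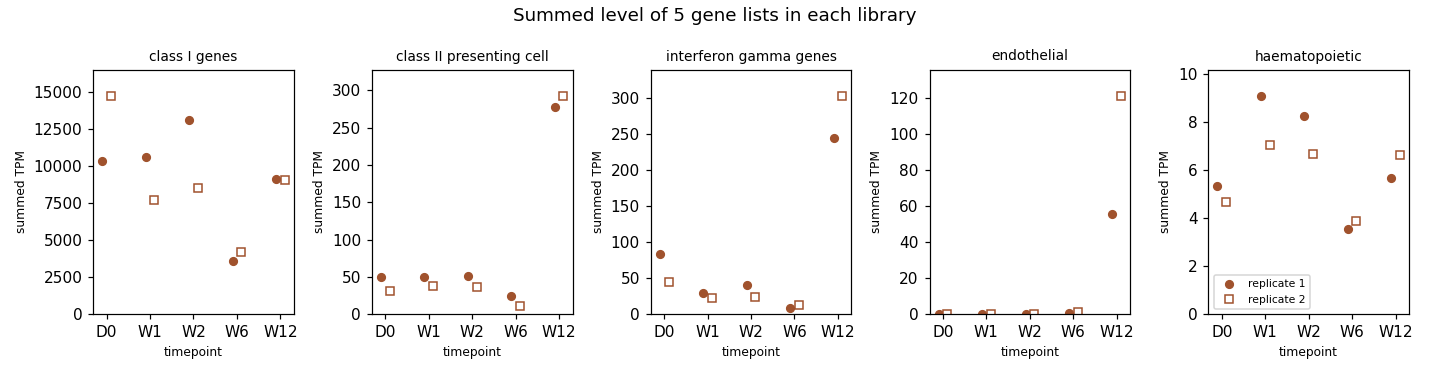
Summed TPM (y axis, linear from 0) of 5 gene lists in each library by timepoint; filled circles are replicate 1 and open squares replicate 2. The class I sum is lowest at W6 (3616 and 4193 TPM), the class II, interferon gamma and endothelial sums are highest at W12, and the haematopoietic sum stays at 9.09 TPM or less.

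Across the 10 libraries, all 36 pairs of the 9 genes had a positive Pearson correlation of log2(TPM + 1), from 0.14 for *B2m* with *Tapbp* to 0.98 for *Psmb8* with *Psmb9*, with a median of 0.81. The highest values joined *Psmb8*, *Psmb9* and *B2m* on one side and *Tap1*, *Tap2*, *Tapbp* and *H2-D1* on the other. *H2-K1* was close to both, with 0.93 for *Psmb8* and 0.91 for *H2-D1*. The points share libraries, timepoints and the fixed total of TPM, so these values only describe the 10 libraries. Among the 9923 other tested genes that averaged 5 TPM or more, the profiles closest to the mean z-score of the 9 genes were those of *Gcnt2* (r = 0.98), *H2-T-ps* and *Syap1* (both 0.96), *Gm20478* and *Gm8909* (0.96 and 0.95). *Gcnt2*, which encodes a branching enzyme of glycans, had 52.9 and 66.1 TPM at D0, 22.6 and 29.0 at W6, and 41.2 and 37.6 at W12.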

How the data were processed

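RNA-seq of 10 EpdSC libraries at 5 timepoints was analysed, and the 4 placode libraries were not analysed here. TPM per gene were deposited by the authors, who trimmed reads with Skewer, ran Salmon 1.4.0 on an index made of GENCODE transcripts (GRCm38) plus the transgene, and used Tximport 1.12.3 to sum transcripts per gene. TPM sum to 1000000 in each library and carry no depth, so no counting error or smallest detectable level is given. The authors' table of their placode comparison, holding fold changes and p values, was not used.

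The 13110 genes that averaged 1 TPM or more were tested on log2(TPM + 1), where changes of low genes are understated, with limma 3.58.1 in R 4.3.3 (eBayes with trend) over all 10 libraries, in 7 contrasts and an F test, with Benjamini-Hochberg adjustment over all genes tested. The authors' count test could not be run on TPM. The step was tested on simulated data.

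The members, gene lists and tests were chosen with earlier results of these data known. All 9 genes are named, with at most the 3 largest called changes each way of other lists in the contrasts described, fixed counterparts, regulators and markers, and the 5 nearest profiles. Lists came from general knowledge, and 1 listed regulator is not reported here. Positions and shared words are from GENCODE M21 and windows from RefSeq, both on GRCm38. Python 3.11.15 with pandas 2.3.3 and matplotlib 3.10.9 was used.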

Additional observations from a re-analysis of the deposited data

How the results depend on the processing

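The alternatives were the replicate block, quantile normalization, median-ratio scaling, fitting only the 4 libraries compared, leaving out each library, a pseudocount of 0.1, an untrended eBayes, a stricter filter of 5 TPM or none, and a threshold of 1 on the log2 change. Leaving out W12, with or without D0 replicate 2, and leaving out single libraries for the other gene lists were chosen after seeing the data. At W12 against D0, 3 genes were called lower without a filter, after quantile normalization, with only the 4 libraries, and at a log2 change of at least 1, and 1 to 6 when a library was left out. At W6 against W2, 5 were called without a filter and 1 to 9 when a library was left out. The count at W6 against D0 was 8 without a filter, 7 with only the 4 libraries and 6 to 9 over libraries left out, that at W12 against W6 3 to 4, and for the F test 7 to 9. The cause of these differences was not tested.

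Same-numbered libraries are different mice and share only a number; their deviations correlated at −0.13 to 0.18. With the replicate block 9, 5 and 4 genes were called at W6 and W12 against D0 and at W12 against W6, and 7 in place of 8 at W6 against W2. Over all genes tested the block lowered the calls at W6 against W2 from 2137 to 1396 and at W2 against W1 from 15 to 6.

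Median-ratio scaling moved the median of all genes at W6 against D0 from 0.08 to −0.05 and that of the 9 from −1.62 to −1.76, and at W12 against W6 from −0.16 to −0.02 and from 0.67 to 0.83. The share of calls that were higher moved from 58.6% to 44.8% at W1, 57.7% to 45.6% at W2 and 56.5% to 45.2% at W6 against D0, and from 33% to 55.7% (45.8% after quantile normalization) at W12 against W6. W6 lay below the 6 earlier libraries in 9 of 9 genes under both scalings.

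Signs turned only where the main log2 change had not passed. Median-ratio scaling gave −0.069 for *H2-D1* at W2 against D0 and 0.13 for *Tapbp* at W12 against W6, and quantile normalization 0.037 for the latter and −0.00227 for *H2-K1* at W2 against W1. Without D0 replicate 2 and W12, *H2-D1*, *Tap1* and *Nlrc5* had 0.00840, 0.25 and 0.26 at W1 against D0. Over libraries left out, the log2 change at W1 against D0 ran from −0.92 to 0.00840 for *H2-D1*, −0.54 to 0.25 for *Tap1*, −0.17 to 0.48 for *Tap2* and −0.49 to 0.26 for *Nlrc5*. At W2 against D0 it ran from −0.44 to 0.49 for *H2-D1*, −0.17 to 0.62 for *Tap1*, −0.22 to 0.43 for *Tap2* and −0.64 to 0.053 for *Psmb8*. At W2 against W1 it ran from −0.21 to 0.33 for *H2-K1*, −0.095 to 0.34 for *B2m*, −0.22 to 0.12 for *Tap2*, −0.055 to 0.19 for *Tapbp* and −0.18 to 0.52 for *Psmb8*. At W12 against D0 it ran from −0.21 to 0.012 for *Psmb8* and −0.24 to 0.22 for *Psmb9*, and at W12 against W6 from −0.35 to 0.30 for *Tapbp*. The depth of TPM is unknown, so its limits could not be given.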
